A study of Mus musculus with 8 samples.

Results

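The RNA levels of 10 genes of the contact between the endoplasmic reticulum (ER) and the mitochondrion were followed in mouse spermatocytes with and without the mitofusin gene Mfn2. The 10 genes were chosen by name, as the voltage-dependent anion channels (VDACs) Vdac1, Vdac2 and Vdac3, the inositol trisphosphate (IP3) receptors Itpr1, Itpr2 and Itpr3, and the linker and tether genes Hspa9, Rmdn3, Vapb and Pacs2. All 10 were found among the 54532 genes listed, and all 10 passed the low-value filter, which kept the 21175 genes with more than 1 FPKM (a level per kilobase of gene that is also scaled for library size) in at least 1 library. The study profiled RNA of spermatocytes by sequencing, to see what changed when Mfn2 was removed from male germ cells. Mice were C57BL/6J. MFN2 WT animals were labelled Mfn2 loxp/loxp, that is, floxed without Cre (the study's methods also allow controls with a single floxed allele), and MFN2 cKO animals carried the floxed allele with Stra8-Cre (Mfn2 loxp/loxp; Stra8-Cre), a Cre that is active in male germ cells from the spermatogonial stage, so that somatic cells of the testis keep Mfn2. Cells were taken at postnatal day (PD) 24 and PD 52, the ages of the labels (a figure legend of the study gives a different day for the older age), and separated by size on an albumin gradient into pachytene (P) and leptotene or zygotene (L/Z) fractions, whose purity was judged by cell diameter and shape and which can hold somatic cells. Each of the 8 combinations of stage, genotype and age had 1 library, and how many animals went into a library is not stated in the sources used here. Thus no group had a replicate. Every test below takes its error from the spread between 4 pairs of libraries, moderated in the fit by the spread of other genes.

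Calcium stored in the ER is released through the IP3 receptors, and where the ER lies against a mitochondrion it enters through the VDACs of the outer mitochondrial membrane and then through the calcium uniporter of the inner membrane. The chaperone encoded by Hspa9 (mortalin, GRP75) links IP3 receptors to VDACs, the ER protein encoded by Vapb binds the outer-membrane protein encoded by Rmdn3 (PTPIP51), and the sorting protein encoded by Pacs2 helps to keep the contacts in place. MFN2 is an outer-membrane fusion protein that also sits on the ER side of such contacts.

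Depth and labels were checked before the members were compared. The libraries held 14340665 to 20379950 reads on genes. Mfn2 was measured over the whole gene, not over the deleted exon alone, at 77.1, 82.2, 62.2 and 97.5 FPKM in the MFN2 WT libraries of P PD 24, L/Z PD 24, P PD 52 and L/Z PD 52 and at 39.6, 34.3, 50.1 and 47.9 FPKM in their MFN2 cKO partners. The 2 genotypes did not overlap for Mfn2, the cKO library being at 41.8% to 80.5% of its partner. Only part of the markers followed the stage labels. Of 6 pachytene markers Piwil1 was higher and Nme8 and Pgk2 were lower in P than in L/Z, and of 6 leptotene and zygotene markers Dmc1 was lower and Meiob and Sycp3 were higher in P (limma, Benjamini-Hochberg adjusted p of 0.05 or less in each). Markers of other cells were present in every library, none of them at 0. The summed FPKM of 6 Sertoli cell markers was 59.2 to 186 in P and 8.30 to 62.7 in L/Z, that of 6 macrophage markers 5.16 to 27.2 in P and 33.6 to 198 in L/Z, that of 5 peritubular myoid markers 5.11 to 32.5 in P and 46.5 to 160 in L/Z, and that of 6 spermatid markers 44.2 to 3896 in P and 143 to 16973 in L/Z. Leydig cell markers (6 genes) summed to 19.0 to 254 in MFN2 WT and 97.7 to 634 in MFN2 cKO. In bulk RNA, fewer cells of a type and less RNA per cell cannot be told apart, and the fraction labels P and L/Z are used below as names of the libraries.

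The 3 VDAC genes and the 3 IP3 receptor genes are families of related coding sequences, so the stretches in which each family is most alike are shown first, since these are the places where a read could come from more than 1 member. They were taken from the longest complete coding sequence of each gene in the GENCODE M21 transcripts (GRCm38) and aligned with MAFFT. Capitals mark the bases that are not the same in all 3 genes. In 60 aligned bases without a gap, 17 columns differed among the VDAC genes. The stretches run from coding base 568 to 627 of Vdac1, 565 to 624 of Vdac2 and 532 to 591 of Vdac3.
Vdac1: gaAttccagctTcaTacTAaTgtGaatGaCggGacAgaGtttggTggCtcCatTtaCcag
Vdac2: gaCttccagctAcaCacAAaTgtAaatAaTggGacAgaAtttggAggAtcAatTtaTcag
Vdac3: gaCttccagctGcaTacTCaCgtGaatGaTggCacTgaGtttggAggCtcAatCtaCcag
In the IP3 receptor genes 10 of 60 columns differed, from coding base 4282 to 4341 of Itpr1, 4285 to 4344 of Itpr2 and 4255 to 4314 of Itpr3.
Itpr1: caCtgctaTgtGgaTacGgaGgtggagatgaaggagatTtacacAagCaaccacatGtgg
Itpr2: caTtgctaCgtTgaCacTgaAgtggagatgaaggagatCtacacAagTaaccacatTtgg
Itpr3: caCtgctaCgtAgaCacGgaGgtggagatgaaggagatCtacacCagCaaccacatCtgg
Over the aligned coding sequence the VDAC genes were identical at 66.0% to 71.5% of bases and the IP3 receptor genes at 67.3% to 69.9%. The longest identical run was 17 bases between VDAC genes and 32 bases between IP3 receptor genes, and no 50-base window of coding sequence was shared by 2 members. Reads as long as that window can therefore be placed on 1 member of each family.

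Other copies and neighbours overlapped some members. In Vdac3 (chr8:22577075-22593813, minus strand, GRCm38), 12.8% of the 50-base transcript windows also occurred in another gene, mostly in the pseudogene Vdac3-ps1, which was itself listed at 61.7 to 103 FPKM, so the division of reads between the 2 is uncertain. In Itpr3 (chr17:27057304-27122223, plus strand), 233 exon bases, 2.58% of the gene, lay over the antisense gene Itpr3os. The library kit, as named in the labels, does not mark the strand, so reads over these bases cannot be assigned to either gene, and part of the Rmdn3 exons is uncertain for the same reason. Vdac2 shared 4.06% and Hspa9 2.81% of its windows with a pseudogene, and for Vdac1, Itpr1, Itpr2, Itpr3, Vapb and Pacs2 the share was at most 1.50%.

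The 10 genes spanned a wide range of levels, which kept much the same order across the libraries. By median FPKM the order was Vdac2 (143), Hspa9 (88.3), Vdac3 (56.7), Pacs2 (23.4), Vdac1 (11.7), Vapb (8.77), Rmdn3 (6.47), Itpr3 (2.96), Itpr1 (1.96) and Itpr2 (0.720). The ranges over the 8 libraries did not overlap between Vdac2 and Hspa9, between Hspa9 and Vdac3 or between Itpr1 and Itpr2. The gap between Hspa9 and Vdac3 rests on the division of reads between Vdac3 and Vdac3-ps1, which is uncertain. All other neighbours in that order had overlapping ranges. Within libraries, Vdac3 was above Pacs2 and Rmdn3 above Itpr3 in 8 of 8, Pacs2 above Vdac1, Vapb above Rmdn3 and Itpr3 above Itpr1 in 7 of 8, and Vdac1 above Vapb in 6 of 8. Summed over each family, the 3 VDAC genes gave 181 to 246 FPKM per library and the 3 IP3 receptor genes 3.87 to 8.10 FPKM. The order and the sums rest on the gene lengths used for FPKM.

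**Figure D1:**
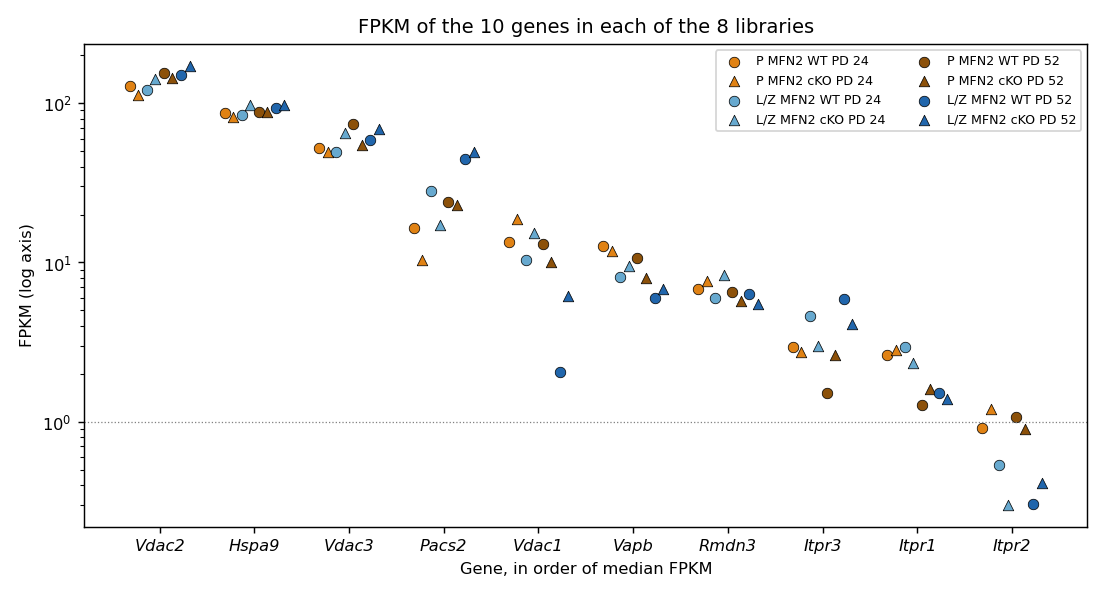
FPKM (log axis) of each of the 10 genes in the 8 libraries, 1 point per library, with circles for MFN2 WT, triangles for MFN2 cKO and colours for stage and age. The dotted line is 1 FPKM. Hspa9 varied least, from 81.9 to 97.3 FPKM, and Vdac1 most, from 2.07 to 18.7 FPKM.

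Of the VDAC genes, Vdac2 (chr14:21825238-21845879, plus strand), whose product is the VDAC isoform that also binds BAK, was the highest of all members. At PD 24 it was at 127 FPKM in P MFN2 WT, 113 in P MFN2 cKO, 121 in L/Z MFN2 WT and 143 in L/Z MFN2 cKO. At PD 52 it was at 155, 143, 151 and 171 FPKM in the same order. The highest PD 24 library (142.9) lay just under the lowest PD 52 library (143.4), so the ages did not overlap. Vdac3, which encodes the third VDAC isoform, was at 52.6, 49.4, 49.7 and 65.3 FPKM at PD 24 and at 74.0, 54.6, 58.9 and 68.4 FPKM at PD 52, in the same order of libraries. It was higher at PD 52 in each of the 4 pairs, although the ages overlapped. Vdac1 (chr11:52360860-52389397, plus strand), the isoform that is most abundant in many somatic tissues, was at 13.5, 18.7, 10.3 and 15.4 FPKM at PD 24 and at 13.0, 10.02, 2.07 and 6.19 FPKM at PD 52. Both L/Z libraries of PD 52 were below all other libraries, and the lowest value rested on 81 reads.

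Within the VDAC family, Vdac2 gave 62.3% to 71.2% of the summed VDAC FPKM and Vdac3 26.3% to 30.6%, whereas Vdac1 gave 10.3% in P MFN2 cKO PD 24 and 0.975% in L/Z MFN2 WT PD 52. The Vdac3 share leaves out the reads listed under Vdac3-ps1. Among the IP3 receptors no member dominated in all libraries. Itpr3 gave 39.4% to 76.4% of their summed FPKM, Itpr1 19.7% to 41.8% and Itpr2 3.92% to 27.6%. Itpr3 had the largest share in 7 of 8 libraries, the exception being P MFN2 cKO PD 24, where Itpr1 gave 41.8% and Itpr3 40.4%. These shares rest on the gene lengths used for FPKM, 18319 bases for Itpr1 and 8990 for Itpr3. Their coding sequences are of like length, 8250 and 8013 bases. In reads, Itpr1 had 971 and Itpr3 536 in P MFN2 WT PD 24, and 417 and 793 in L/Z MFN2 WT PD 52. Which receptor is the main one is thus not settled by FPKM.

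**Figure D2:**
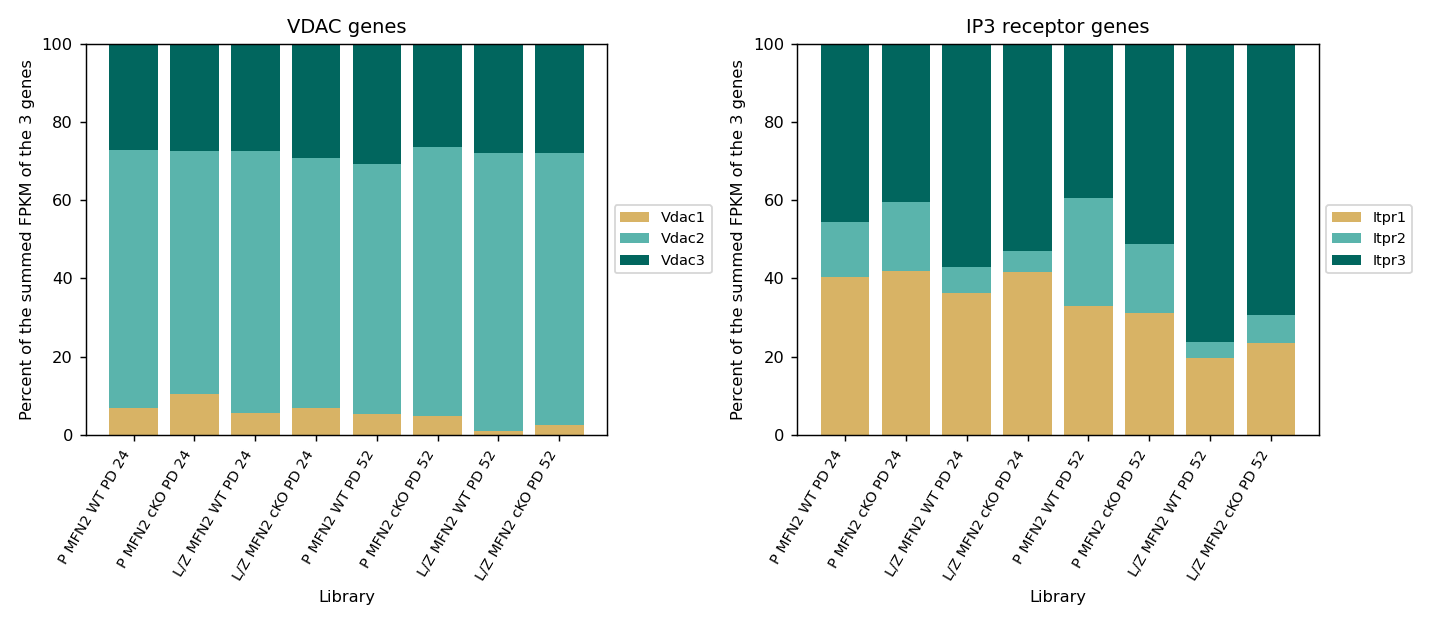
Percent of the summed FPKM of each family given by its members, 1 bar per library, for the VDAC genes (left) and the IP3 receptor genes (right). Vdac2 and Vdac3 filled most of each VDAC bar, and the Itpr3 part was largest in the L/Z libraries of PD 52, at 76.4% and 69.4%.

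Of the IP3 receptor genes, Itpr1 (chr6:108213096-108551109, plus strand), the type that predominates in neurons, split by age. It was at 2.63, 2.83, 2.94 and 2.33 FPKM at PD 24 and at 1.28, 1.59, 1.52 and 1.39 FPKM at PD 52, in the order P MFN2 WT, P MFN2 cKO, L/Z MFN2 WT, L/Z MFN2 cKO. The ages did not overlap. Itpr2 (chr6:146108299-146502223, minus strand), known for its high affinity for IP3, split by stage. In P it was at 0.918, 1.20, 1.07 and 0.903 FPKM (WT and cKO at PD 24, then WT and cKO at PD 52) and in L/Z at 0.536, 0.301, 0.302 and 0.411 FPKM. It exceeded 1 FPKM in 2 libraries only, both of them P, and its reads numbered 67 to 331 per library. Itpr3, the type common in epithelial cells, was at 2.96, 2.74, 1.53 and 2.61 FPKM in P and at 4.62, 2.97, 5.89 and 4.09 FPKM in L/Z, in the same order. The stages did not overlap for Itpr3 either, but the gap was small, since the highest P library was at 2.955 FPKM and the lowest L/Z library at 2.972 FPKM. Itpr3os, the antisense neighbour, was listed at 0 to 2.07 FPKM in the PD 24 libraries, at 9.11 and 3.12 FPKM in P MFN2 WT and P MFN2 cKO at PD 52, and at 27.6 and 32.1 FPKM in L/Z MFN2 WT and L/Z MFN2 cKO at PD 52, and its part in the Itpr3 values was not tested.

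Of the linker and tether genes, Hspa9 was nearly level. It was at 87.3, 81.9, 84.6 and 96.7 FPKM at PD 24 and at 88.1, 88.6, 93.0 and 97.3 FPKM at PD 52, a highest to lowest ratio of 1.19. Only 0.179% of the 21175 genes had a smaller standard deviation of log2(FPKM + 1) over the 8 libraries. Rmdn3 (chr2:119137001-119157034, minus strand) was at 6.85, 7.65, 5.97 and 8.34 FPKM at PD 24 and at 6.57, 5.71, 6.37 and 5.47 FPKM at PD 52. Its partner Vapb (chr2:173737511-173784336, plus strand) was at 12.7, 11.8, 8.07 and 9.47 FPKM at PD 24 and at 10.7, 8.0, 6.00 and 6.81 FPKM at PD 52. Vapb was higher in P than in L/Z in each of the 4 pairs of like genotype and age, and lower at PD 52 in each of the 4 pairs of like stage and genotype. Pacs2 (chr12:113014508-113074401, plus strand) varied more than any member but Vdac1 on the log2(FPKM + 1) scale. It was at 16.4, 10.4, 27.9 and 17.2 FPKM at PD 24 and at 23.9, 22.9, 44.8 and 49.5 FPKM at PD 52. Its highest values were those of both L/Z libraries of PD 52.

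Whether loss of Mfn2 changed these genes was asked first. None of the 10 genes was called, no member had 1 direction in all 4 pairs, and the genotypes overlapped in each of them. The fit was of log2(FPKM + 1) in limma, with each stage and age pair as a block and p-values adjusted over all 21175 genes by the method of Benjamini and Hochberg. It called 29 genes, 0.137% of those tested, and 1467 genes had an unadjusted p under 0.05, none of them a member. The estimate for Mfn2 itself was -0.87 (SE 0.19), which was not called (limma adjusted p = 0.275). Over all genes, 13.4% moved the same way in the 4 pairs, and 0.911% had genotypes that did not overlap. Vdac1 had the highest estimate, 0.46 (SE 0.25, limma adjusted p = 0.785), and was higher in MFN2 cKO in 3 of 4 pairs. The estimate was 0.21 without the L/Z PD 52 pair and 0.73 without the P PD 52 pair. Pacs2 had the lowest, -0.30 (SE 0.19, limma adjusted p = 0.827), and was lower in 3 of 4 pairs. With 1 pair left out it ranged from -0.45 (without L/Z PD 52) to -0.18 (without L/Z PD 24). The other 8 members lay between -0.13 (Itpr3) and 0.05 (Rmdn3), with SEs of 0.14 to 0.20. The median change was 0.00 over the members and -0.04 over all genes.

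Single pairs held larger differences, which can be set only against counting error. A change of at least 2-fold on the log2(FPKM + 1) scale was seen in 0 of 10 members in P at PD 24, 0 of 10 in P at PD 52 and 0 of 9 in L/Z at PD 24, where a member counted if it was above 1 FPKM in either library, and 8.08%, 11% and 10.5% of all genes reached that size in these pairs. In L/Z at PD 52 it was reached by 1 of 9 members and 7.95% of all genes. That member was Vdac1, at 2.07 FPKM (81 reads) in MFN2 WT and 6.19 FPKM (237 reads) in MFN2 cKO, a change of 1.23 with a 95% exact binomial interval of 0.96 to 1.50 that covers counting error only. In P at PD 52 Vdac1 went the other way, by -0.34 (interval -0.52 to -0.17). Pacs2 was lower in MFN2 cKO in both PD 24 pairs, by -0.61 (interval -0.70 to -0.52) in P and -0.67 (interval -0.74 to -0.60) in L/Z, and differed by -0.06 and 0.14 in the PD 52 pairs. Itpr3 was lower in MFN2 cKO in both L/Z pairs, by -0.50 and -0.44, and higher in P at PD 52, by 0.52. The whole set of Hspa9 changes lay between -0.09 and 0.19.

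**Figure D3:**
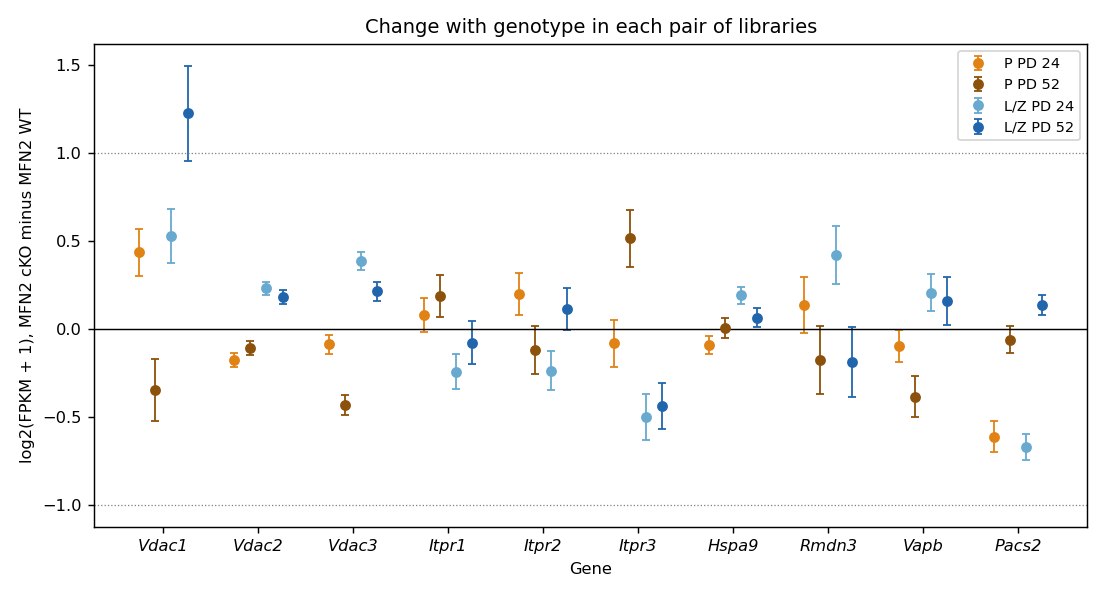
Difference in log2(FPKM + 1), MFN2 cKO minus MFN2 WT, for each gene in the 4 pairs of libraries, with bars for the 95% exact binomial counting interval and dotted lines at a 2-fold change. Each gene has points on both sides of 0, and the only point past a dotted line is Vdac1 in L/Z at PD 52, at 1.23.

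Whether the change with genotype depended on age or on stage was fitted as an interaction. In the genotype by age fit, limma called 3 genes (0.0142%) and no member, and 2641 genes had an unadjusted p under 0.05, none of them a member. The member nearest to a call was Pacs2, whose change with genotype was higher at PD 52 than at PD 24 by 0.68 (SE 0.28, limma adjusted p = 0.405). Rmdn3 had the lowest estimate, -0.46 (SE 0.27, limma adjusted p = 0.538). The genotype by stage fit called no gene (0%), and 876 genes had an unadjusted p under 0.05, none of them a member. Its estimates for the members ran from -0.83 (Vdac1, SE 0.43) to 0.69 (Itpr3, SE 0.34), each with a limma adjusted p of 0.972 or more. The 2 stages went in opposite directions, each in both of its pairs, for 4 of 10 members (Vdac2, Vdac3, Itpr1 and Vapb) and 11% of all genes, and the 2 ages for 1 of 10 (Rmdn3) and 16.9% of all genes. With 2 pairs on each side these fits can call only large differences, so a missed threshold does not show that the pairs responded alike.

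Next, the stages were compared, P against L/Z. Pacs2 was lower in P than in L/Z, by -0.84 (SE 0.15, limma adjusted p = 0.00776), and was the only member called, while 12.4% of all genes were called higher in P and 16% lower. It was lower in P in 4 of 4 pairs, at 58.6% and 60.3% of the L/Z level at PD 24 (MFN2 WT and MFN2 cKO) and at 53.4% and 46.3% at PD 52. The members Vdac1, Itpr2 and Vapb were higher in P in 4 of 4 pairs, and Itpr3 was lower in 4 of 4, but none of these passed the threshold. Their estimates were 0.86 for Vdac1 (SE 0.32, limma adjusted p = 0.0828), 0.54 for Itpr2 (SE 0.17, limma adjusted p = 0.0525), 0.46 for Vapb (SE 0.16, limma adjusted p = 0.0626) and -0.63 for Itpr3 (SE 0.23, limma adjusted p = 0.0737). With a pseudocount of 0.1 the Itpr2 estimate was 1.22 (limma adjusted p = 0.0378) and with voom on the recovered reads 1.41 (limma adjusted p = 0.00189), both calls. Itpr2 passed the filter only through P libraries, the group where it is high, so its stage values here are a description and not a test. With no filter on low values it was not called (0.54, limma adjusted p = 0.0808). Without the MFN2 WT PD 52 pair the Itpr3 estimate was -0.36 and that of Vdac1 0.41. Thus 5 of 10 members had 1 direction in all 4 pairs, against 48.1% of all genes. With median-of-ratios scaling Vdac2 and Hspa9 were also lower in P in 4 of 4, which made 7 of 10, against 48.6% of all genes. The stages did not overlap for 2 of 10 members, Itpr2 (kept by the filter through P libraries only) and Itpr3, against 15.7% of all genes, which are shares of a like size. The size of the Vdac1 difference came mostly from 1 pair: P was at 6.29 times the L/Z level in MFN2 WT at PD 52 and at 1.21 to 1.62 times in the other 3 pairs. Vdac2, Vdac3, Itpr1, Hspa9 and Rmdn3 had estimates between -0.12 and 0.04.

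The ages were compared in the same way. Pacs2 was higher at PD 52 than at PD 24, by 0.93 (SE 0.19, limma adjusted p = 0.0275), and Itpr1 was lower, by -0.59 (SE 0.14, limma adjusted p = 0.0346). These were the only members called, while 11.9% of all genes were called higher at PD 52 and 5.41% lower. Among protein-coding genes alone these shares were 12.3% and 11.1%. The Pacs2 level at PD 52 was 1.46 and 1.61 times that at PD 24 in MFN2 WT (P and L/Z) and 2.21 and 2.88 times in MFN2 cKO, in which the PD 24 levels were the low ones. The Itpr1 level at PD 52 was 48.7% to 59.6% of that at PD 24 over the 4 pairs. In 7 of 10 members all 4 pairs had 1 direction, Vdac2, Vdac3, Hspa9 and Pacs2 higher and Vdac1, Itpr1 and Vapb lower at PD 52, against 46.2% of all genes. The ages did not overlap for 2 of 10 members, Itpr1 and Vdac2, against 13.4% of all genes. The uncalled estimates furthest from 0 were those of Vdac1 (-0.99, SE 0.29, limma adjusted p = 0.0656), Vapb (-0.38, SE 0.13, limma adjusted p = 0.0954) and Vdac2 (0.30, SE 0.11, limma adjusted p = 0.0984). When 1 pair of libraries at a time was left out, the Pacs2 call was lost without the P MFN2 cKO, L/Z MFN2 WT or L/Z MFN2 cKO pair (limma adjusted p of 0.0653 to 0.131), and the Itpr1 call was lost without any of the 4 (limma adjusted p of 0.0516 to 0.149). With no filter on low values neither was called (limma adjusted p of 0.0679 for Pacs2 and 0.0904 for Itpr1).

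**Figure D4:**
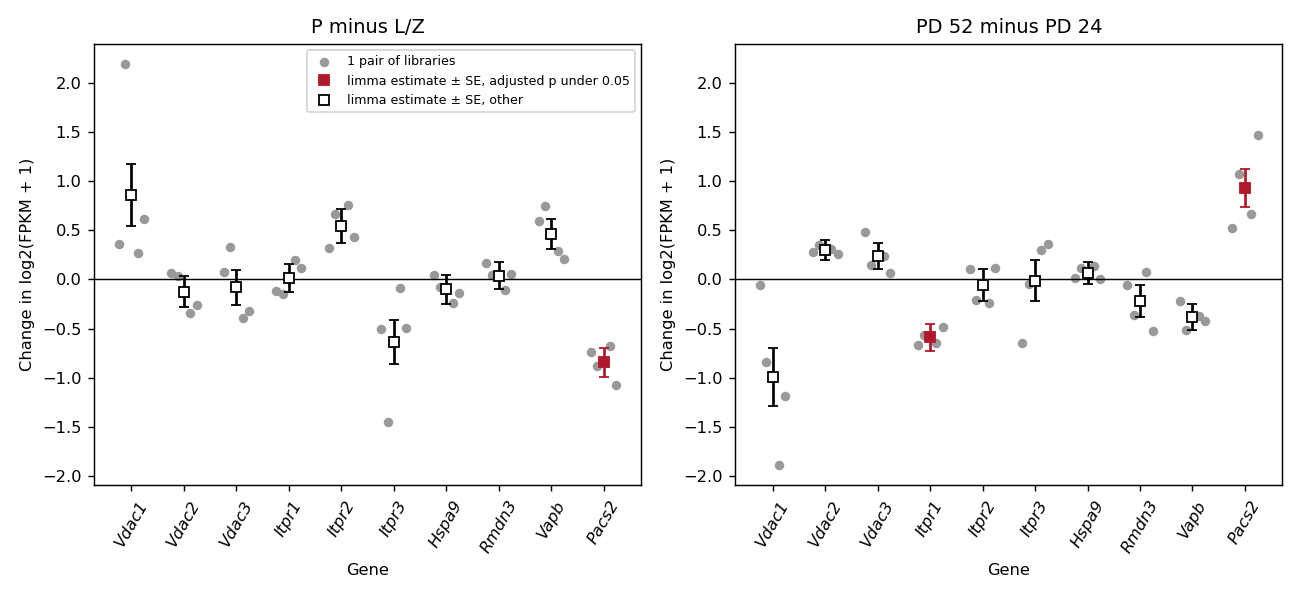
Differences in log2(FPKM + 1) for P minus L/Z (left) and PD 52 minus PD 24 (right). Grey points are the 4 pairs of libraries, and squares with bars are the limma estimate and its SE, filled red where the adjusted p was under 0.05, which are Pacs2 (-0.84) on the left and Itpr1 (-0.59) and Pacs2 (0.93) on the right.

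Markers of other cells moved along the same axes as several members, and their values stand here beside them. The 6 spermatid markers summed to 939, 44.2, 1840 and 143 FPKM at PD 24 (P MFN2 WT, P MFN2 cKO, L/Z MFN2 WT, L/Z MFN2 cKO) and to 3896, 1586, 8566 and 16973 FPKM at PD 52, and 5 of the 6 were called lower in P and higher at PD 52, as Pacs2 was. Across the 8 libraries the Pearson correlation of this sum with Pacs2, both as log2(FPKM + 1), was 0.93. The 6 Sertoli cell markers summed to 152, 186, 62.7 and 52.3 FPKM at PD 24 and to 141, 59.2, 8.30 and 18.3 FPKM at PD 52, in the same order, and 6 of 6 were called higher in P and 4 of 6 lower at PD 52. Their sum had a correlation of 0.91 with Vdac1, 0.94 with Vapb and 0.84 with Itpr2 over the 8 libraries. Macrophage markers (6 of 6) and myoid markers (4 of the 4 that passed the filter) were called lower in P, the direction in which Itpr3 lay, with correlations of 0.62 and 0.59 with Itpr3. The correlation of Itpr3 furthest from 0 was that with the Sertoli cell sum, -0.77. At PD 52, where Itpr1 was lower, 2 of 4 myoid and 4 of 6 Sertoli cell markers were called lower, and 4 of 6 pachytene and 5 of 6 spermatid markers were called higher. The correlation of Itpr1 with these sums was 0.49 for myoid, 0.48 for Sertoli cell, -0.89 for pachytene and -0.72 for spermatid markers. It was 0.66 with leptotene and zygotene markers and 0.53 with spermatogonia markers. The pachytene sum is mostly that of 1 gene, Ldhc, at 2056.5 of 2622.5 FPKM in P MFN2 WT PD 24 and 2910 of 3490 in P MFN2 WT PD 52. The Leydig cell markers, of which 4 of 6 were called higher in MFN2 cKO, had correlations of -0.64 (Itpr3) to 0.37 (Vdac1) with the members. These correlations share 8 libraries that differ in stage, age and genotype at once, and the part of these cell types in the results was not tested.

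**Figure D5:**
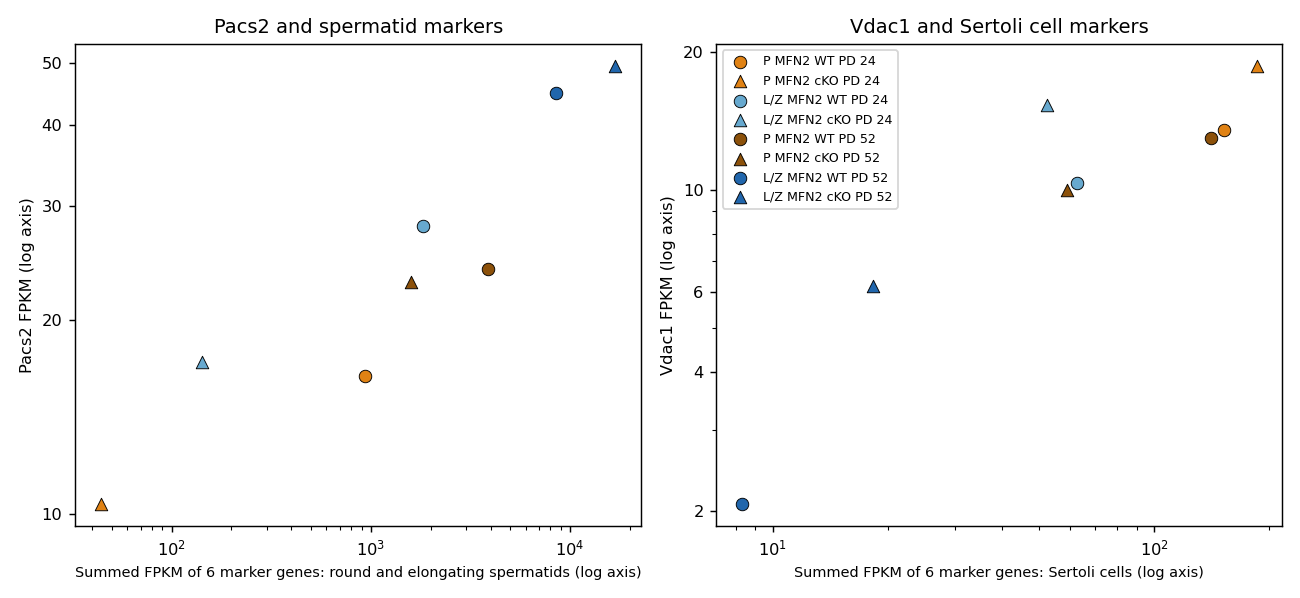
Left, Pacs2 FPKM against the summed FPKM of 6 spermatid markers. Right, Vdac1 FPKM against the summed FPKM of 6 Sertoli cell markers. Both axes are log axes with 1 point per library. The L/Z libraries of PD 52 were highest for Pacs2 (44.8 and 49.5) and spermatid markers and lowest for Vdac1 (2.07 and 6.19) and Sertoli cell markers (8.30 and 18.3).

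The genes around the contact were described from 4 lists of the same pathway. None of their members was called with genotype. The shares of all genes called stand beside each count. Of 9 genes of the uniporter and of matrix calcium, all above the filter, 3 were higher and 1 lower in P (12.4% and 16% of all genes). Mcu, the pore subunit, was at 1.21, 0.349, 1.16 and 1.03 FPKM in P and at 2.03, 0.731, 2.83 and 3.77 FPKM in L/Z, each in the order WT and cKO at PD 24, then at PD 52 (change -0.72, SE 0.19, limma adjusted p = 0.0292). Smdt1, which encodes the small subunit EMRE of the uniporter, had the highest median of this list, 21.1 FPKM, with a stage estimate of 0.63 (SE 0.26, limma adjusted p = 0.106). At PD 52, 1 of 9 was lower (5.41% of all genes), the pore paralog Mcub (-0.79, SE 0.19, limma adjusted p = 0.0404).

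Of 14 genes of the ER calcium store, 11 passed the filter. In P, 2 of 11 were higher and 2 lower (12.4% and 16% of all genes), and none was called with age. Stim1, the sensor of ER calcium, was at 33.6, 29.2, 22.5 and 25.0 FPKM in P and at 17.1, 13.0, 15.9 and 14.9 FPKM in L/Z, so that the stages did not overlap (change 0.81, SE 0.16, limma adjusted p = 0.0118). Calr3, a calreticulin paralog of the testis, was at 7.68, 1.07, 8.58 and 8.71 FPKM in P and at 20.5, 2.99, 33.0 and 42.3 FPKM in L/Z (change -1.56, SE 0.22, limma adjusted p = 0.00418). Calr, the calcium-binding ER chaperone, had the highest median of the list, 213 FPKM, above that of Vdac2. Its levels ran from 185 to 251 FPKM.

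Of 18 other contact and tether genes, 18 passed the filter, with 2 higher and 1 lower in P (12.4% and 16% of all genes) and with 1 higher and 2 lower at PD 52 (11.9% and 5.41% of all genes). Vapa, the paralog of Vapb, had the highest median, 41.8 FPKM, and was higher in P (0.68, SE 0.15, limma adjusted p = 0.0177), at 52.4, 54.4, 47.1 and 43.1 FPKM against 30.6, 40.5, 24.6 and 27.4 FPKM in L/Z. Of the genes called higher in P, the largest change was that of Rhot2, a mitochondrial motor adaptor (0.75, SE 0.14, limma adjusted p = 0.00954). Pdzd8, a lipid-transfer tether of the ER, was lower in P (-1.19, SE 0.23, limma adjusted p = 0.0101) and higher at PD 52 (1.20, SE 0.30, limma adjusted p = 0.0440), the directions of Pacs2. It was at 8.97, 5.07, 11.9 and 11.6 FPKM in P and at 16.9, 8.03, 36.6 and 42.7 FPKM in L/Z. Of 19 genes that supply IP3 or regulate its receptor, 17 passed the filter, with 2 higher and 3 lower in P (12.4% and 16% of all genes) and 2 higher and 2 lower at PD 52 (11.9% and 5.41% of all genes). Plcz1, the sperm phospholipase that starts calcium release in the egg, had the highest median, 38.1 FPKM, and the lowest stage estimate of the called genes (-1.51, SE 0.17, limma adjusted p = 0.00363). It was at 19.4, 7.50, 32.7 and 44.6 FPKM in P and at 43.5, 30.8, 93.5 and 130.2 FPKM in L/Z. Itpkb, a kinase that removes IP3 by phosphorylating it, had the highest stage estimate among the called genes of this list (0.54, SE 0.16, limma adjusted p = 0.0396). The median stage change was 0.52 over the uniporter list, 0.17 over the ER store list, 0.05 over the tether list and 0.17 over the IP3 list, against -0.04 over all genes.

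The members differed in how many genes shared their pattern. Among 4864 protein-coding genes with a median above 10 FPKM, the gene most like Pacs2 over the 8 libraries was Zfp451 (Pearson r of log2(FPKM + 1) = 0.997), followed by Tmc7 (0.997), and 885 genes had r above 0.9. For Vdac2 this number was 208, with 1700037H04Rik (0.991) and Ccdc113 (0.991) in front, and for Vapb 156, with Pim3 (0.978) and Farsb (0.973). Vdac3 had 95 such genes, led by Btf3 (0.990) and Cfl2 (0.983). Vdac1 had 66, led by Slc25a5 (0.989), which encodes an ADP/ATP carrier of the inner mitochondrial membrane, and Sdf2 (0.980). Itpr2 had 27, led by Espn (0.959) and Eppin (0.950), and Hspa9 22, led by Metap2 (0.950) and Hbs1l (0.942). Few genes were like Itpr1 (7, Mtmr3 at 0.956 and Zmym3 at 0.951), Itpr3 (6, Paxbp1 at 0.941 and Zswim4 at 0.934) and Rmdn3 (4, Elp3 at 0.936 and Otulin at 0.920). Within the set, Vdac2 and Vdac3 had r = 0.85 and Vdac1 and Vapb 0.86, whereas Pacs2 had -0.87 with Vapb and -0.85 with Vdac1, and Itpr1 had -0.90 with Vdac2. These are descriptions over 8 libraries that share stage and age, with no test.

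RefSeq promoters (GRCm38.p6, 250 bases before to 50 after the start) were held for 6 of the 10 members, 7 promoters in all. They are shown for Pacs2 and Vdac1, the members that varied most, from 5′ to 3′ on the strand of the gene. Capitals mark matches on either strand to TGACGTCA (CRE), GCGCATGC (NRF1 core), CCGGAAG (ETS), GGGCGG (GC box) and GGCAGTT (MYB core).
Pacs2, chr12:113014258-113014557, plus strand: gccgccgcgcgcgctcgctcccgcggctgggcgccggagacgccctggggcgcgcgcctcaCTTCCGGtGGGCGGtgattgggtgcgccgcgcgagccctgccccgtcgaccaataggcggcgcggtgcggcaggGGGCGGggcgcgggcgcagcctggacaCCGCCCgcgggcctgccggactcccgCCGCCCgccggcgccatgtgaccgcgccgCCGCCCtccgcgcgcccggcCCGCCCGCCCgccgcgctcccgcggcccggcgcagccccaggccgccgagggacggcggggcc
Vdac1 upstream start, chr11:52360601-52360900, plus strand: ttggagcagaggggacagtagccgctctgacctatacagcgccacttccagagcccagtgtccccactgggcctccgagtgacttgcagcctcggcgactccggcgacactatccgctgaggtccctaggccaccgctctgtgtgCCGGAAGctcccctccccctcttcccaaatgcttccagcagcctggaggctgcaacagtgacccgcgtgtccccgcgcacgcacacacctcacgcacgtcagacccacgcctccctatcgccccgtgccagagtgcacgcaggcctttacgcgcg
Vdac1 downstream start, chr11:52361347-52361646, plus strand: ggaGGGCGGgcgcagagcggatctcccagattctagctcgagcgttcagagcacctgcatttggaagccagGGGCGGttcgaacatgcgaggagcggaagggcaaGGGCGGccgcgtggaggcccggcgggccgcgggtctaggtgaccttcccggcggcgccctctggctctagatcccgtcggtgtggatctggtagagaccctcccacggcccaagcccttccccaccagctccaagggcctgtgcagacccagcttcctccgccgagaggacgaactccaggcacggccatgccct
The Pacs2 promoter had 85.7% G and C and 60 CpG, against medians of 52.7% and 7 over 32851 mouse promoters of the same length. It held 1 ETS match and 7 GC box matches, the last 2 of which overlap. The upstream Vdac1 start held 1 ETS match and no GC box, and the downstream start held 3 GC boxes and no ETS match. Over all promoters, a CRE match was found in 1.79%, an NRF1 core in 2.71%, an ETS match in 8.86%, a GC box in 35.7% and a MYB core in 4.12%. Letters of the CRE and MYB core were in none of the 7 windows, and the NRF1 core was in that of Vapb alone. A match of letters is a description, and says nothing of whether a factor binds.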

How the data were processed

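RNA of spermatocytes was sequenced in 8 libraries, 1 for each combination of stage, genotype and age. The authors deposited 1 table of FPKM values, made with Novomagic from paired-end reads, not log-transformed and not filtered, with the gene lengths they used. The submitters' processing notes name CASAVA 1.4 and Bowtie 0.12.2 and the builds mm8 and mm9, but 98.3% of the genes shared with GENCODE M21 (GRCm38) had its coordinates, including all 10 members. The product of FPKM and gene length was, in each library, a whole number of equal steps (100% of values, within 0.01), so the reads behind each value could be recovered.

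Here log2(FPKM + 1) was tested with limma 3.58.1 (lmFit, eBayes with trend, R 4.3.3) over the 21175 genes with more than 1 FPKM in at least 1 library, adjusted by Benjamini and Hochberg, with calls at an adjusted p under 0.05. The fits were also run on simulated data with a fixed noise between libraries and no differences between pairs or in cell types. That setting differs from these libraries, so it does not show the error of the fits here. The genotype fit had the stage and age pair as a block, the stage fit genotype and age, and the age fit stage and genotype. A genotype by stage fit was added after the data were seen. Fold changes on this scale understate those of low genes. P-values measure the spread between libraries. Changes within a pair carry 95% exact binomial intervals for counting error only. Alternatives were a pseudocount of 0.1, no filter, median-of-ratios scaling, protein-coding genes alone, voom on the recovered reads, no block and leaving out each pair. Coding sequences were aligned with MAFFT 7.526.

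The members and lists were chosen with earlier results of these data known. Named beside the members and Mfn2 are, from each pathway list, the gene of highest median FPKM and the called gene of largest change in each direction with genotype and stage, the 2 genes most like each member, and the neighbours and copies that overlap a member. Mcub and the marker genes that were called were named after their values were seen. Promoters of Vdac2, Vdac3, Itpr1 and Hspa9 and protein sequences were not used here. Values of some genes that this rule or an overlap would name are not reported here.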

Additional observations from a re-analysis of the deposited data

Results flagged for a closer look

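For 5 members, changes with genotype pointed one way in both pairs of 1 stage or age and the other way in both pairs of the other. On the log2(FPKM + 1) scale, the mean difference between MFN2 cKO and MFN2 WT was -0.14 in P and 0.21 in L/Z for Vdac2, -0.26 in P and 0.30 in L/Z for Vdac3, 0.13 in P and -0.16 in L/Z for Itpr1, and -0.24 in P and 0.18 in L/Z for Vapb. Opposite directions of this kind were seen in 4 of 10 members and in 11% of all 21175 genes. The median change over all genes above 1 FPKM in either library was -0.095 (PD 24) and -0.052 (PD 52) in P. In L/Z it was 0.077 and 0.024, so its signs were those of Vdac2, Vdac3 and Vapb. With median-of-ratios scaling the Vdac2 change in P at PD 52 was -0.0065, against -0.11 as reported. The difference between stages was tested in the added genotype by stage fit, in which none of the 4 was called (limma adjusted p of 0.972 or more for each). For Rmdn3 the mean difference was 0.28 at PD 24 and -0.18 at PD 52, while 16.9% of all genes had opposite directions at the 2 ages, and its difference between ages was not called (limma adjusted p = 0.538).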

How the results depend on the processing

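No member was called with genotype under any alternative. Nor was any called in the genotype by age fit under its alternatives, which did not include no block or leaving out a pair. The number of members called with stage, 1 as reported with 28.4% of all genes called, was 2 with a pseudocount of 0.1 (29.3% of all genes), 4 with protein-coding genes alone (36.8%), 5 with voom on recovered reads (35.9%) and 0 with no block (5.41%), and 1 to 2 with a pair left out (11.4% to 28.9%). The added calls were among Vdac1, Itpr2, Itpr3 and Vapb, of which Itpr2 passed the filter through P libraries only. The Pacs2 call was lost only with no block (limma adjusted p = 0.202). The number called with age, 2 as reported with 17.3% of all genes called, was 0 with no filter on low values, 0 with no block and 0 to 2 with a pair left out (0% to 23.6% of all genes). The 2 called without the P MFN2 WT pair were Pacs2 and a member not called as reported, since the Itpr1 call was lost. The number of all genes called moved over 1.5 times: with genotype from 29 to 7 (pseudocount 0.1), 0 (no filter), 71 (protein-coding genes), 114 (voom) and 3 (no block), with stage from 6013 to 3010 (no filter) and 1145 (no block), with age from 3669 to 791 (no filter) and 1 (no block), and in the interaction with age from 3 to 74 (pseudocount 0.1), 0 (no filter), 0 (median-of-ratios), 204 (protein-coding genes) and 622 (voom). With a pair left out, the number of all genes called with genotype was 0 to 2. With stage it was 2369 without MFN2 WT PD 24, 3119 without MFN2 cKO PD 52, 4549 without MFN2 cKO PD 24 and 5953 without MFN2 WT PD 52. With age it was 0 without P MFN2 cKO, 1048 without L/Z MFN2 WT, 1505 without L/Z MFN2 cKO and 4905 without P MFN2 WT. The cause was not tested.

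Signs turned only for uncalled values near 0. With median-of-ratios scaling the genotype changes of Itpr1, Itpr2 and Vapb became 0.0049, 0.0051 and 0.0031, the stage changes of Itpr1 and Rmdn3 -0.045 and -0.040, and the age interactions of Vdac1 and Hspa9 0.030 and 0.059. The interaction of Vdac1 was 0.070 with a pseudocount of 0.1, and the age change of Itpr3 0.0080 with voom. With a pair left out, genotype changes ranged from -0.034 to 0.10 (Vdac2), -0.10 to 0.17 (Vdac3), -0.080 to 0.063 (Itpr1), -0.082 to 0.065 (Itpr2), -0.0068 to 0.087 (Hspa9), -0.074 to 0.13 (Rmdn3) and -0.11 to 0.090 (Vapb), stage changes from -0.21 to 0.028 (Vdac3), -0.049 to 0.067 (Itpr1) and -0.0065 to 0.088 (Rmdn3), and age changes from -0.11 to 0.0057 (Itpr2) and -0.13 to 0.20 (Itpr3).

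With 1 library a group, differences between animals and between libraries cannot be told apart. Reads were few for Itpr2 (67 to 331) and for Vdac1 in L/Z MFN2 WT at PD 52 (81).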
